A study of Rattus norvegicus with 6 samples.

Results

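Brain-enriched miRNAs were followed through the small RNA of serum exosomes from rats given Naoxintong Capsule (NXT) or saline. The 10 miRNAs were rno-miR-9a-5p, rno-miR-9a-3p, rno-miR-124-3p, rno-miR-128-3p, rno-miR-129-5p, rno-miR-132-3p, rno-miR-132-5p, rno-miR-138-5p, rno-miR-212-3p and rno-miR-219a-5p. They were picked by name, and the rule uses no measured value. All 10 were among the 867 miRNA sequences of the count table, of which 865 had reads in the 6 libraries used here.

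A miRNA is cut from one of the arms, 5p or 3p, of a hairpin precursor, is loaded into an Argonaute protein and represses messenger RNAs that pair with its seed, bases 2 to 8. miR-124 and miR-9 are hallmark miRNAs of neurons and of neural progenitors, miR-128 limits neuronal excitability, miR-132 and miR-212 are induced by neuronal activity through CREB, miR-138 and miR-129 act at synapses, and miR-219 promotes the maturation of oligodendrocytes. None of this limits them to nervous tissue, and miR-128 and miR-132 are also made by blood and vascular cells. The libraries were from serum, with no brain sample beside them, so the cells that released these miRNAs cannot be told from the data.

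Exosomes are small membrane vesicles that carry RNA between cells. NXT-Exo were collected from the serum of male Sprague-Dawley rats of 6 to 8 weeks on a normal diet that received 1000 mg/kg/d of NXT through a gavage tube. Ctl-Exo came from like rats on the same diet that received 5 mL/kg/d of saline. Each group had 10 rats. Used here were 5 libraries of NXT-Exo, numbered 1 to 5, and a single one of Ctl-Exo, numbered 5 and referred to as Ctl-Exo 5 or the control library. The deposited table has columns named for 4 further Ctl-Exo libraries, 1 to 4, which have no sample record among those used and were set aside, so every difference is from 1 of the 5 named controls. Dosing is given as 7 days in the sample titles but differently in the treatment field, where it rises by library from 7 through 8, 9 and 10 to 11 days over NXT-Exo 1 to 5 and is 11 days in Ctl-Exo 5. The labels do not tie a library to single animals, so the spread between libraries may be partly technical. With 1 Ctl-Exo library, no p-value between the groups was calculated, and the difference of each miRNA is given beside the SD between the treated libraries.

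The sequences to which the reads were assigned are shown to make the arms and the shared seed visible. RefSeq entries of the rat assembly GRCr8 matched 9 of the 10 miRNAs, each letter for letter the sequence in the deposited table. The seed is in capitals, 5′ to 3′.
miR-9a-5p: uCUUUGGUuaucuagcuguauga
miR-9a-3p: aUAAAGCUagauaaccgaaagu
miR-128-3p: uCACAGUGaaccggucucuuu
miR-129-5p: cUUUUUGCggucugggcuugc
miR-132-3p: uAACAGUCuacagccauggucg
miR-132-5p: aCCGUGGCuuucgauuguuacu
miR-138-5p: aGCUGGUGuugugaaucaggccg
miR-212-3p: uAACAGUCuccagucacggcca
miR-219a-5p: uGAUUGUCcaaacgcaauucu
These 9 miRNAs held 8 distinct seeds. miR-132-3p and miR-212-3p shared AACAGUC, and in the gene list of GRCr8 Mir212 and Mir132 are direct neighbours, with miR-212-3p at chr10:60521811-60521832 and miR-132-3p at chr10:60522091-60522112 on the plus strand. Apart from this pair, the only other listed sequence with the seed of one of the 9 was miR-128-y, which is described with miR-128-3p.

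The listed reads of a library ranged from 1168686 in NXT-Exo 4 to 3781718 in NXT-Exo 5, with 1890463 in the control library. Levels are CPM, the reads of a miRNA scaled to a common library total with TMM factors, so a single read stood for 0.261 to 0.782 CPM in the 5 treated libraries and for 0.544 CPM in the control library, and a count of 0 in the control library allows a level of up to 1.63 CPM (3 reads). Reads are not independent molecules, so this limit and all intervals cover counting error only. Lists of miRNAs of other cells were summed to see what else the serum preparations held. The red blood cell list (miR-486, miR-451-5p, miR-144-3p and miR-144-5p) reached 157715 to 260257 CPM in the treated libraries and 210386 CPM in the control library, and the white blood cell and platelet list 20705 to 24462 CPM and 25676 CPM. The liver list (miR-122-5p, miR-122-3p, miR-192-5p and miR-194-5p) ranged from 10937 to 24423 CPM against 7640 CPM. Its highest mean over the 6 libraries was that of miR-192-5p, 7135 CPM, against 6064 CPM for miR-122-5p. The endothelial list ranged from 1154 to 1498 CPM against 1252 CPM. The muscle list (miR-1-3p, miR-133a-3p and miR-206-3p) ranged from 81.3 to 153 CPM against 104 CPM. In all 5 NXT-Exo libraries miR-1-3p was below the control library and miR-133a-3p above it, which the sum does not show. Every miRNA of these 5 lists had reads in all 6 libraries.

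**Figure D1:**
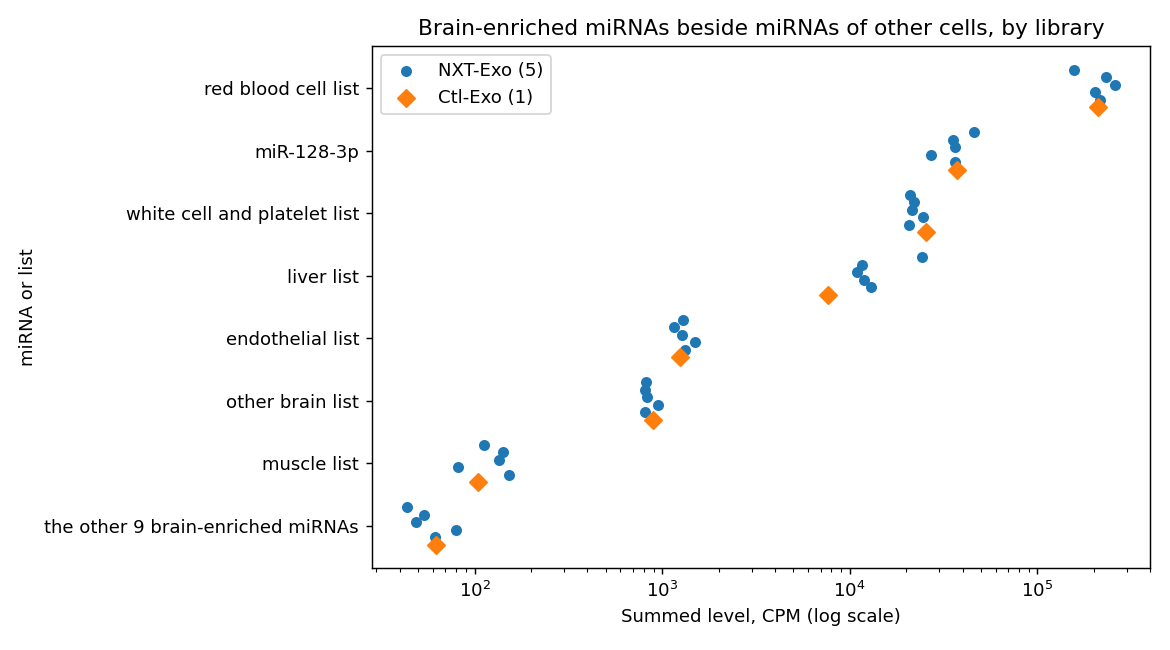
Summed level in CPM (log scale, x axis) of miR-128-3p, of the other 9 brain-enriched miRNAs and of the lists of other brain miRNAs and of other cells (y axis), with a blue point for each of the 5 NXT-Exo libraries and an orange diamond for Ctl-Exo 5. miR-128-3p lay between the red blood cell list and the white blood cell and platelet list, while the other 9 together lay between 43.7 and 79.7 CPM, below every list shown, of which the muscle list at 81.3 to 153 CPM was the nearest.

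miR-128-3p made up almost all of the reads of the group, and the other 9 miRNAs were rare. The 10 miRNAs held 2.98% to 4.75% of the listed reads in NXT-Exo and 3.64% in the control library, and miR-128-3p supplied 99.7% to 99.9% of these reads in every library. Without miR-128-3p, the other 9 had 102 to 235 reads in an NXT-Exo library and 115 in the control library. Their summed level was 57.4 ± 14.1 CPM (SD, n = 5) in NXT-Exo against 62.6 CPM in the control library, a difference of −0.12 on the log2(CPM + 1) scale where the SD between treated libraries was 0.33. All 10 summed reached 36433 ± 6660 CPM (SD, n = 5) against 37456 CPM, a difference of −0.04 with an SD of 0.27. For both sums, 1 of the 5 NXT-Exo libraries lay above the control library and 4 below it. Fewer exosomes from a given source and fewer copies in each exosome cannot be told apart in such libraries.

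**Figure D2:**
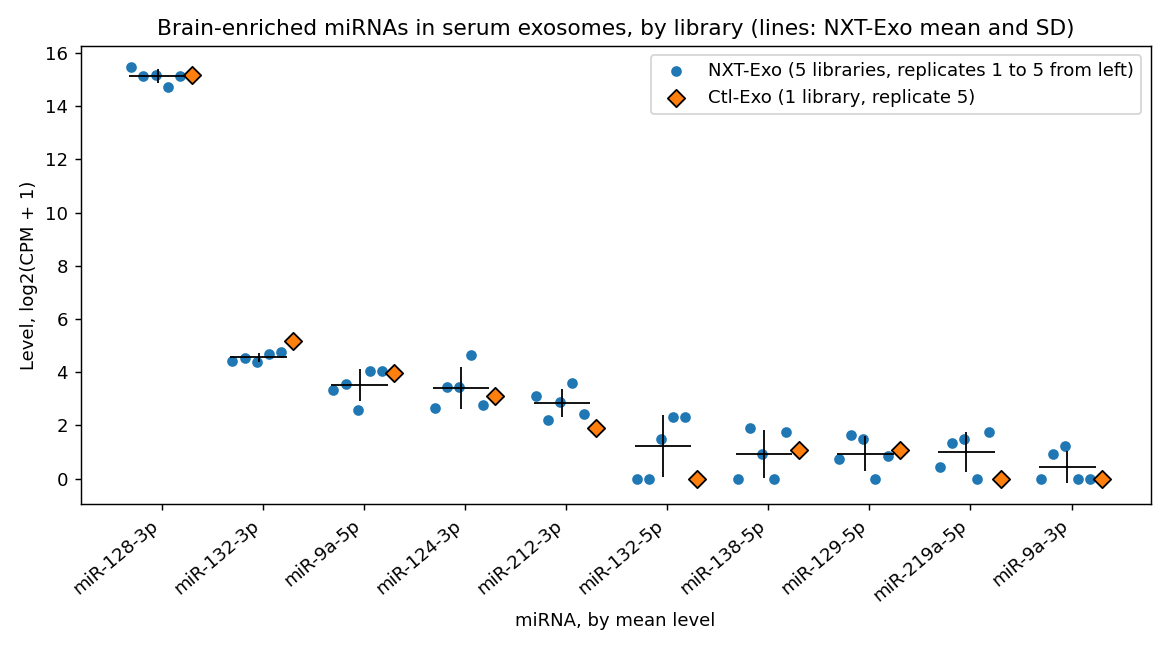
Level of each brain-enriched miRNA as log2(CPM + 1) (y axis), in the order of its mean over the 6 libraries (x axis), with blue points for NXT-Exo 1 to 5 from left to right, an orange diamond for Ctl-Exo 5, and black lines for the mean and SD of the NXT-Exo points. miR-128-3p stood 10.48 log2 units above the next miRNA on average, the diamond lay above all 5 blue points for miR-132-3p and below all 5 for miR-212-3p, and at least 1 library had no reads for each of the last 5 miRNAs.

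The levels of the 10 miRNAs were set in order by their means over the 6 libraries, and each neighbouring pair was compared within libraries by an exact two-sided sign-flip permutation test. The pairs and their direction came from the same 6 libraries as the test, so its p-values are no independent support for the order. miRNAs are read as whole short molecules, so CPM was not divided by length. miR-128-3p (36545 CPM) came first, followed by miR-132-3p (24.8 CPM), miR-9a-5p (11.8 CPM), miR-124-3p (10.5 CPM) and miR-212-3p (5.95 CPM). The lower ranks were taken by miR-132-5p (1.60 CPM), miR-138-5p (1.17 CPM), miR-129-5p (1.07 CPM), miR-219a-5p (0.997 CPM) and miR-9a-3p (0.375 CPM). Of the 9 neighbouring pairs, 3 kept the same order in all 6 libraries. miR-128-3p exceeded miR-132-3p by 10.48 ± 0.42 on the log2(CPM + 1) scale (SD, n = 6), miR-132-3p exceeded miR-9a-5p by 1.07 ± 0.42, and miR-212-3p exceeded miR-132-5p by 1.67 ± 1.00. Each of these pairs gave p = 0.03125 in the exact permutation test, the smallest value that 6 libraries allow, and 0.09375 after Benjamini-Hochberg adjustment over the 9 pairs, so none of the 9 passed 0.05. With 6 libraries, at least 6 of the 9 pairs would have had to reach the smallest p for any of them to pass. miR-124-3p was above miR-212-3p in 5 of 6 libraries (0.66 ± 0.66, adjusted exact permutation p = 0.211), and miR-9a-5p and miR-124-3p differed by 0.24 ± 0.86 (adjusted exact permutation p = 0.75). Among the last 5 miRNAs, the neighbours were not separated beyond their spread, with adjusted exact permutation p of 0.225 to 1.

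miR-128-3p, which restrains neuronal excitability and is made by many other cell types, was one of the most abundant miRNAs in the exosomes. It ranked between the fifth and the seventh of all listed miRNAs in each library. Its level was 45978 CPM in NXT-Exo 1, 35775 in NXT-Exo 2, 36668 in NXT-Exo 3, 27132 in NXT-Exo 4 and 36323 in NXT-Exo 5, and 37394 CPM in the control library (Wilson 95% interval of its reads, 37120 to 37669 CPM). NXT-Exo 1 was high and NXT-Exo 4 low, and the control library lay inside the range of the NXT-Exo libraries. The NXT-Exo mean of 36375 ± 6673 CPM (SD, n = 5) differed from the control library by −0.04 on the log2(CPM + 1) scale, less than the SD of 0.27 between NXT-Exo libraries. With 580902 reads over the 6 libraries, counting error was not what limited this value. The variance of its reads over the 5 NXT-Exo libraries was 2465 times what counting alone gives (chi-square per degree of freedom), and its coefficient of variation was 18.3%.

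The letters of miR-128-3p are encoded at 2 places in the RefSeq table of GRCr8, at chr13:42251933-42251953 on the plus strand (Mir128-1, inside the span of R3hdm1) and at chr8:120963807-120963827 on the minus strand (Mir128-2, inside the span of Arpp21). The hairpins, with both arms in capitals, show that the 3p arm is the same in both and the 5p arm is not, so the reads of miR-128-3p cannot be divided between the genes while those of the 5p arms can.
Mir128-1 (chr13:42251884-42251965, plus strand): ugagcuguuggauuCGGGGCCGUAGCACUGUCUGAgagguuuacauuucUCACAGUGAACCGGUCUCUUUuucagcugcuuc
Mir128-2 (chr8:120963795-120963878, minus strand): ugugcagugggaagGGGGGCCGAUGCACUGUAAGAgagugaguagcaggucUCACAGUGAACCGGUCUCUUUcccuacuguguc
The 5p arms had few reads, 63 for miR-128-1-5p and 216 for miR-128-2-5p over the 6 libraries, against 580902 for the 3p arm. miR-128-2-5p was at 15.0, 15.4, 18.4, 5.47 and 14.9 CPM in NXT-Exo 1 to 5 and at 8.17 CPM in the control library, so 4 of the NXT-Exo libraries were above the control library and NXT-Exo 4, with 7 reads, was below it. miR-128-1-5p was at 3.45 ± 1.80 CPM (SD, n = 5) against 5.44 CPM. The share of miR-128-2-5p in the reads of both 5p arms was 72.2% to 87.5% in NXT-Exo (81.1% ± 5.67, SD, n = 5) and 60% in the control library, where 25 reads gave an exact 95% interval of 38.7% to 78.9%. The control library had the lowest share of the 6 libraries, and its interval overlapped the exact 95% intervals of all 5 NXT-Exo libraries.

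A second listed sequence, miR-128-y, is miR-128-3p with AA added at the 3′ end, shown here with the added bases in capitals.
miR-128-y: ucacagugaaccggucucuuuAA
The added bases match neither hairpin, in which the next bases are UU in Mir128-1 and CC in Mir128-2. miR-128-y was at 178 ± 44.9 CPM (SD, n = 5) in NXT-Exo and 139 CPM in the control library, and miR-128-3p without the addition held 99.4% to 99.6% of the reads of both sequences in every library. Among the 228 other listed miRNAs that averaged 100 or more reads a library, the profiles closest to that of miR-128-3p over the 6 libraries were those of miR-328-y and miR-92a-3p. Their centred log2 levels differed from it by a root mean square of 0.088 and 0.093, where the median of the 228 was 0.318. The other 9 brain-enriched miRNAs had too few reads for such a comparison.

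miR-132 and miR-212, neighbouring genes whose transcription in neurons follows activity, supplied the 2 of the 10 miRNAs for which the control library lay outside the range of the NXT-Exo libraries, and they lay on opposite sides. Over all 865 miRNAs with reads, the control library was outside that range for 30.3%. miR-132-3p was at 20.7, 22.0, 19.8, 25.0 and 26.1 CPM in NXT-Exo 1 to 5, from 32 to 100 reads, and at 35.4 CPM in the control library, from 65 reads (Wilson 95% interval 27.8 to 45.1 CPM). Each of the 5 treated libraries was below the control library and below its interval. That interval leaves out the counting error of the treated libraries themselves, so it does not separate each of them from the control library. The treated libraries varied among themselves no more than counting alone gives, with a chi-square per degree of freedom of 0.918. The NXT-Exo mean was 22.7 ± 2.74 CPM (SD, n = 5), which is 0.642 times the control library, a difference of −0.62 on the log2(CPM + 1) scale with an SD of 0.17 between NXT-Exo libraries. This is less than 2-fold. miR-132-3p was the 1 of the 10 for which all 5 NXT-Exo libraries were below the control library, which held for 15.3% of the 865 miRNAs and for 15.8% of the 467 that averaged 10 or more reads a library.

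miR-212-3p, which carries the same seed, was at 7.67, 3.61, 6.29, 10.9 and 4.43 CPM in NXT-Exo 1 to 5, from 12 to 23 reads, and at 2.72 CPM in the control library, from 5 reads. Each of the 5 treated libraries was above the control library, but 3 of them lay within its Wilson 95% interval of 1.16 to 6.37 CPM. The NXT-Exo mean of 6.59 ± 2.90 CPM (SD, n = 5) was 2.42 times the control library, with bounds of 1.03 and 5.67 from that interval, and the difference was 1.03 on the log2(CPM + 1) scale with an SD of 0.54. miR-212-3p was the only one of the 10 that was at least 2-fold apart on this scale with the control library outside the NXT-Exo range, and it fell below 2-fold without NXT-Exo 1 (0.97) or NXT-Exo 4 (0.80), when the median replaced the mean of NXT-Exo (0.97), when log2 values were averaged (0.95) and with a pseudocount of 10 (0.38). By this rule 11.4% of all 865 miRNAs were apart, 5.32% higher and 6.13% lower in NXT-Exo, and 6.42% of the 467 that averaged 10 or more reads, 4.71% higher. Without the condition on the fold, all 5 NXT-Exo libraries were above the control library for 15.0% of the 865 and for 21.6% of the 467. Counts of 1 apart and 2 outside the range, among 10 miRNAs of which 5 averaged 10 or more reads, are too small to be set apart from these shares.

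The other arm of the Mir212 hairpin was read about as often. miR-212-5p had 113 reads over the 6 libraries against 85 for miR-212-3p, and was at 7.00, 5.12, 13.0, 9.38 and 6.78 CPM in NXT-Exo 1 to 5 and at 4.36 CPM in the control library, from 8 reads. All 5 NXT-Exo libraries were again above the control library, with a mean of 8.26 ± 3.07 CPM (SD, n = 5) and a difference of 0.79 on the log2(CPM + 1) scale (SD 0.46). Both arms come from the same precursor and the same libraries, so the arms are not separate evidence on the groups.
miR-212-5p: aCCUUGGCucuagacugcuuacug

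Because the NXT-Exo mean was lower for miR-132-3p and higher for miR-212-3p, their balance was given for each library, a measure that does not depend on the scaling and was added after their levels had been seen. miR-132-3p made up 72.9%, 85.9%, 75.9%, 69.6% and 85.5% of the reads of both in NXT-Exo 1 to 5 (77.9% ± 7.40, SD, n = 5) and 92.9% in the control library, from 65 and 5 reads. The exact 95% interval of the control library was 84.1% to 97.6%, and NXT-Exo 1, 3 and 4 were below it while NXT-Exo 2 and 5 were within it. Interval against interval, NXT-Exo 2, 3 and 5 overlapped the control library, NXT-Exo 3 with 62.8% to 86.1%. The intervals of NXT-Exo 1 (62.2% to 82.0%) and NXT-Exo 4 (54.2% to 82.3%) did not overlap it. That the control library had the highest share follows from the levels by which the pair was picked, so the share is not separate support. In reads, there were 2.29 to 6.08 of miR-132-3p for each of miR-212-3p in NXT-Exo and 13 in the control library. miR-132-3p was the more abundant of the pair in all 6 libraries.

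**Figure D3:**
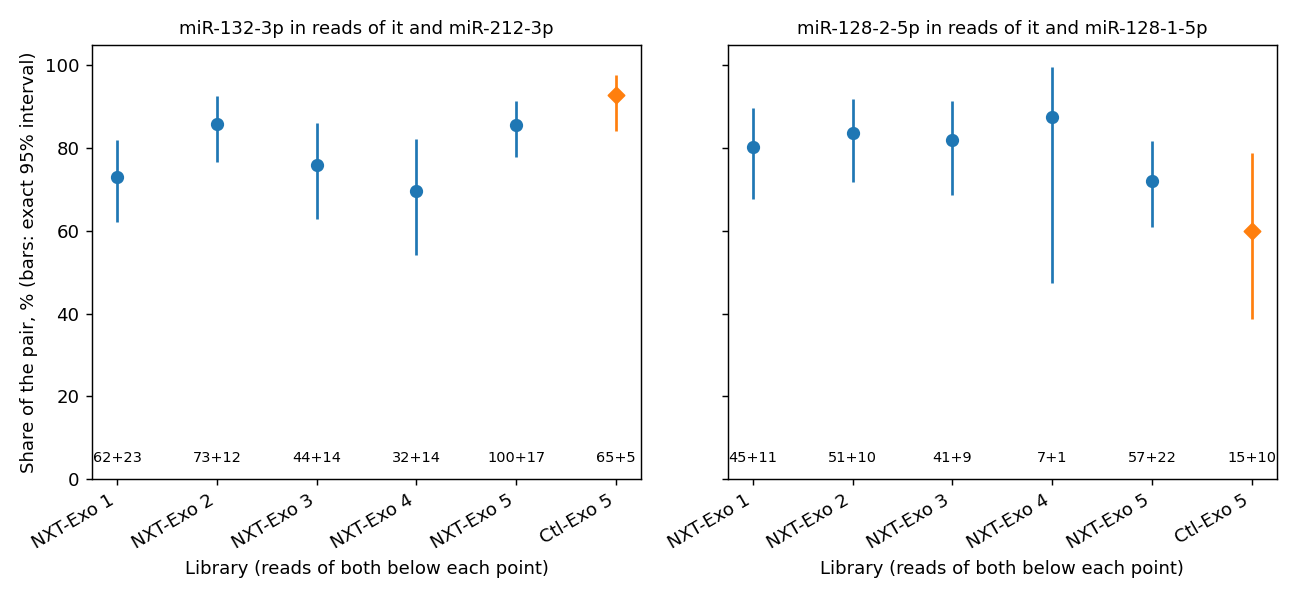
Share (%) of miR-132-3p in the reads of it and miR-212-3p (left) and of miR-128-2-5p in the reads of it and miR-128-1-5p (right), for each library on the x axis, with exact 95% intervals as bars and the reads of both above the axis. Ctl-Exo 5 had the highest share in the left plot, 92.9%, and the lowest in the right one, 60%. Its interval overlapped those of NXT-Exo 2, 3 and 5 in the left plot and those of all 5 NXT-Exo libraries in the right one. Its place in the left plot follows from the levels by which that pair was picked.

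The other arm of the Mir132 hairpin, miR-132-5p, was rare. The hairpin is shown with both arms in capitals.
Mir132 (chr10:60522033-60522133, plus strand): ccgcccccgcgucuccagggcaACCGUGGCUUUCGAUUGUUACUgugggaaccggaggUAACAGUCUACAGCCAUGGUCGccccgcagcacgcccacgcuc
miR-132-5p had 0 reads in NXT-Exo 1, NXT-Exo 2 and the control library, and 4, 5 and 15 reads in NXT-Exo 3, 4 and 5, which is 1.80, 3.91 and 3.91 CPM. The arms of this hairpin therefore differed in reads, 376 for miR-132-3p against 24 for miR-132-5p. The NXT-Exo mean of miR-132-5p was 1.92 ± 1.96 CPM (SD, n = 5), between the 1.63 CPM (3 reads) and the Wilson 95% upper limit of 2.09 CPM that a count of 0 in the control library allows, so no fold is given. The control library lay within the NXT-Exo range, since 2 NXT-Exo libraries were also at 0, and a difference was not detectable at this depth.

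miR-9a-5p, a regulator of neural progenitors, was seen in every library but varied between them by more than counting error. It was at 9.00, 10.8, 4.95, 15.6 and 15.6 CPM in NXT-Exo 1 to 5, from 11 to 60 reads, and at 14.7 CPM in the control library, from 27 reads. NXT-Exo 4 and 5 were above the control library and the other 3 below it, and the chi-square per degree of freedom of the NXT-Exo libraries was 4.50. The mean of 11.2 ± 4.57 CPM (SD, n = 5) differed from the control library by −0.36 on the log2(CPM + 1) scale, less than the SD of 0.62. Of the other arm, miR-9a-3p, there were 3 reads each in NXT-Exo 2 and NXT-Exo 3 and 0 in the other 4 libraries, so 6 reads in all against 181 for miR-9a-5p.

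miR-124-3p, the most abundant miRNA of neurons in brain, was at only 5.33, 9.94, 9.89, 24.2 and 5.74 CPM in NXT-Exo 1 to 5, from 16 to 33 reads, and at 7.62 CPM in the control library, from 14 reads (Wilson 95% interval 4.54 to 12.8 CPM). NXT-Exo 4 was far above the rest, and the other 4 lay on both sides of the control library and inside its interval. The mean was 11.0 ± 7.70 CPM (SD, n = 5) and the difference 0.48 on the log2(CPM + 1) scale with an SD of 0.80. Without NXT-Exo 4, the library with the fewest reads, the mean was 7.73 ± 2.53 CPM (SD, n = 4) and the difference 0.02, so nearly all of the difference came from that library.

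The 3 remaining miRNAs, miR-129-5p, miR-138-5p and miR-219a-5p, had between 18 and 22 reads each over the 6 libraries, and no difference between the groups was detectable at this depth. miR-138-5p, which limits the size of dendritic spines, had 0, 9, 2, 0 and 9 reads in NXT-Exo 1 to 5 and 2 in the control library, or 1.19 ± 1.28 CPM (SD, n = 5) against 1.09 CPM. miR-129-5p had 2, 7, 4, 0 and 3 reads in NXT-Exo and 2 in the control library, or 1.07 ± 0.866 CPM (SD, n = 5) against 1.09 CPM. miR-219a-5p, known for its part in myelination, had 1, 5, 4, 0 and 9 reads in NXT-Exo and 0 in the control library, or 1.20 ± 0.995 CPM (SD, n = 5), which is under the 1.63 CPM that a count of 0 in the control library allows. NXT-Exo 4, where 1 read was worth the most, had 0 reads of all 3 of them.

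For miR-219a and miR-138, a 3p arm outside the list had more reads in total than the 5p arm in it. This held in all 6 libraries for miR-219a but in only 4 for miR-138. For miR-138, NXT-Exo 3 had 2 reads of each arm and NXT-Exo 5 had 6 of the 3p arm against 9. The letters of miR-219a-5p occur in the hairpins of both Mir219a1 and Mir219-2 in GRCr8, although the table has an entry for this arm at Mir219-2 alone, and those of miR-138-5p occur in Mir138-1 and Mir138-2, so the 5p reads of either cannot be given to 1 hairpin. miR-219a-1-3p, from Mir219a1, had 180 reads against 19 for miR-219a-5p and was at 11.0 ± 3.21 CPM (SD, n = 5) in NXT-Exo and 12.5 CPM in the control library, with the control library inside the NXT-Exo range.
miR-219a-1-3p: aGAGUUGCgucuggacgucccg
miR-138-2-3p had 45 reads against 22 for miR-138-5p, at 3.26 ± 3.07 CPM (SD, n = 5) against 2.18 CPM, and miR-129-2-3p had 10 reads against 18 for miR-129-5p. Entries of the same numbers without the rat prefix were also rare. miR-219-x was at 4.56 ± 2.71 CPM (SD, n = 5) against 2.18 CPM, miR-138-y had 1 to 10 reads in each NXT-Exo library and 0 in the control library with a mean of 1.54 CPM. miR-138-y is miR-138-2-3p with UU added at the 3′ end. It met the rule for being 2-fold apart and higher in NXT-Exo. However, its mean is under the 1.63 CPM that 0 reads allow in the control library, so no fold is given. miR-138-2-3p itself was not apart, with 2 NXT-Exo libraries above the control library and 3 below it. miR-128-x and miR-219-y had 15 and 6 reads in all. Of the 10 partner arms named, 6 were in the count table, all with reads. None of these was 2-fold apart, and miR-212-5p was the only one with the control library outside the NXT-Exo range.

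**Figure D4:**
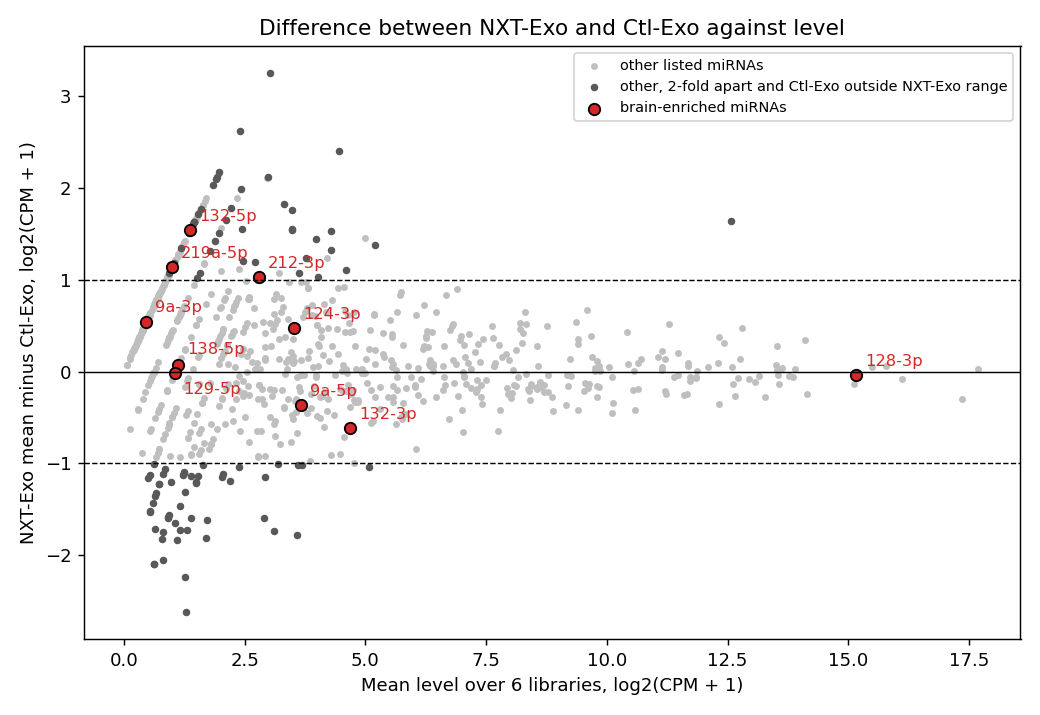
Mean of NXT-Exo minus Ctl-Exo 5 on the log2(CPM + 1) scale (y axis) against the mean level over the 6 libraries (x axis, log2(CPM + 1)) for the 865 miRNAs with reads, with brain-enriched miRNAs in red, the 99 miRNAs that were 2-fold apart with Ctl-Exo 5 outside the NXT-Exo range darker (miR-212-3p in red), and dashed lines at 2-fold. Of the red points, miR-132-5p, miR-219a-5p and miR-212-3p lay above the upper line, the first 2 with 0 reads in Ctl-Exo 5, and miR-128-3p lay near 0 at the high end of the level.

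Across the 10 miRNAs the difference ranged from −0.62 to 1.55 on the log2(CPM + 1) scale, with 6 above and 4 below 0 and a median of 0.27, where the median of all 865 miRNAs was 0.16. For the 5 that averaged 10 or more reads (miR-128-3p, miR-132-3p, miR-9a-5p, miR-124-3p and miR-212-3p) the median was −0.04, against 0.03 for the 467 miRNAs at that depth.

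A list of 24 other miRNAs that brain holds at a high level was described in the same way, and 13 of them were listed. Their summed level ranged from 809 to 946 CPM over the treated libraries, with 899 CPM in the control library, above that of the 9 rare miRNAs in every library. miR-383-5p was at 239 ± 15.9 CPM (SD, n = 5) against 284 CPM, with all 5 NXT-Exo libraries below the control library, miR-149-5p at 232 ± 41.1 CPM against 207 CPM and miR-326-3p at 162 ± 60.8 CPM against 207 CPM. These 3 supplied most of the sum in every library, and only 7 of the 13 averaged 10 or more reads a library. The list was chosen by level in brain and not by absence from other tissues, so its sum does not measure RNA from brain. None of the 13 was 2-fold apart, and the control library was below all 5 NXT-Exo libraries for 1 (miR-139-5p) and above all 5 for 3 (miR-383-5p, miR-338-5p and miR-218a-5p, the last with 1 read in the control library). Over all 865 miRNAs, 11.4% were apart and 30.3% outside the range. The median difference of the 13 was −0.17 on the log2(CPM + 1) scale.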

How the data were processed

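Total RNA of serum exosomes from ultracentrifugation was made into small RNA libraries (TruSeq Small RNA kit) and sequenced on an Illumina instrument. With ACGT101-miR the authors filtered out repeats, reads of low complexity, adapter dimers and other RNA families, and deposited raw counts of reads for each miRNA sequence and library. They also deposited TPM values, which are the count times 1 constant for each library with no division by length, and 0.01 for 0 reads. The listed counts were 86.0% to 88.3% of the totals that these constants imply. The submitters' processing notes name the build Rnor 6.0, and the aligner and miRNA database release are not given in the sources used here. The labels name no pooling of libraries and do not say whether serum was pooled between rats. The paper describes ultracentrifugation of a total volume of serum and storage of the exosomes in aliquots. The SD between libraries may therefore not be a spread between animals. The table also has 8 columns, counts and TPM named for Ctl-Exo 1 to 4. They match no sample record used here and were left out.

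Samples were grouped by their labels. CPM were calculated from the counts with TMM factors (0.932 to 1.095) over 865 miRNAs in edgeR 4.0.16 (R 4.3.3), and groups were set side by side as the difference in log2(CPM + 1) between the average of the 5 NXT-Exo levels and Ctl-Exo 5, which understates changes of rare miRNAs. A miRNA was apart when this was at least 2-fold in either direction and Ctl-Exo 5 was beyond the lowest or highest NXT-Exo library. Intervals are Wilson (levels) or exact binomial (shares), and they came from scipy 1.17.1, with pandas 2.3.3, numpy 2.4.6 and matplotlib 3.10.9 for sums and plots (Python 3.11.15). The calculation was tested on simulated data with known changes much larger than 2-fold. Recovery was checked only for well-covered miRNAs and without TMM factors. The test therefore does not cover rare miRNAs or changes near 2-fold. Levels of different sequences are shares of reads, not numbers of molecules.

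The miRNAs and all lists were chosen with earlier results of these data known. Named were all 10 miRNAs, their partner arms, entries of the same number without the rat prefix, sequences with the same seed, the 3 other brain miRNAs with the highest mean, and the 2 closest profiles of each miRNA with a mean of at least 100 reads. miR-139-5p, miR-338-5p and miR-218a-5p were named after their values were seen. 4 partner arms (miR-124-5p, miR-129-1-3p, miR-138-1-3p and miR-219a-2-3p) had no entry in the count table. Coordinates and sequences are those of RefSeq on GRCr8, not of the authors' build, and no coordinates were converted. The alternatives tried were a pseudocount of 0.1 or 10, DESeq2 1.42.0 factors (median of ratios), the listed total or the deposited TPM for scaling, medians or averaged log2 values, 1 library left out at a time, only miRNAs averaging 10 or more reads, and the fold alone.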

Additional observations from a re-analysis of the deposited data

Results flagged for a closer look

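The NXT-Exo libraries of 33 miRNAs and sums were searched for a library that stands apart, taken as a gap to its nearest neighbour of more than 0.71 of the whole range (Dixon's criterion for 5 samples). 5 of the 33 were past it. A single set of normally distributed values passes about 1 time in 20. The 33 overlap, with sums beside their parts, and some had reads in few libraries, so the 5 cannot be set against that rate. For miR-124-3p, NXT-Exo 4 was high, at 24.2 CPM against 5.33 to 9.94 CPM in the other 4, a gap of 0.756 of the range. For miR-128-2-5p, NXT-Exo 4 was low, at 5.47 CPM against 14.9 to 18.4 CPM, a gap of 0.725. The summed level of the other brain miRNAs was also highest in NXT-Exo 4, at 946 CPM against 809 to 827 CPM, a gap of 0.864. NXT-Exo 4 was the library with the fewest listed reads, 1168686, and the part of depth in these 3 values was not tested. miR-219-y was seen in NXT-Exo 5 alone, with 6 reads, which makes the gap 1 whatever the number of reads. The liver list was highest in NXT-Exo 1, at 24423 CPM against 10937 to 13034 CPM, a gap of 0.845, and the same library had the highest miR-128-3p, 45978 CPM. A relation between them was not tested.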

How the results depend on the processing

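Of the 10 miRNAs, 1 was apart, and this became 0 with a pseudocount of 10, with a median in place of the mean and with averaged log2 values, and 3 with no condition on the range (miR-132-5p, miR-212-3p and miR-219a-5p). Leaving out each NXT-Exo library gave 0 to 1, with 0 without NXT-Exo 1 and, without NXT-Exo 4, miR-219a-5p in place of miR-212-3p. The other brain miRNAs had 0 apart, and 1 with a pseudocount of 0.1, 2 with no condition on the range and 0 to 2 with a library left out (2 without NXT-Exo 4). All miRNAs had 99 apart, of which 46.5% were higher in NXT-Exo. This became 4 with a pseudocount of 10 (75% higher), 30 with a mean of at least 10 reads (73.3% higher) and 166 with no condition on the range (68.1% higher), and was 101 to 121 with a library left out. The summed level differed by −0.04, and by −0.138 to 0.049 over its alternatives, all within the SD of the NXT-Exo libraries. It was −0.124 without miR-128-3p, which was chosen after the data had been seen. The order of 3 neighbouring pairs was kept in every library, and 3 to 4 pairs with 1 library left out. Of 120 alternative values of single miRNAs, 114 moved by less than the SD and 109 kept their sign, and 6 of the 10 miRNAs kept 1 sign throughout, among them miR-132-3p (−0.67 to −0.47) and miR-212-3p (0.38 to 1.25). The scalings moved the median of all miRNAs by at most 0.047 on the log2 scale. No paired analysis was possible because only number 5 occurs in both groups and their comparison has no test. Depth limits the 5 miRNAs with a mean under 10 reads, and the single Ctl-Exo library limits every difference.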
